A study of Mus musculus with 22 samples.

Results

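The genes described here drive DNA replication and mitosis, and they were followed in the epithelium of the fetal mouse urogenital sinus, which in males gives rise to the buds of the prostate. The list holds 52 names, and a gene was measured where it was the only symbol of a probe set, the sequence-matched set of probes that reports 1 transcript cluster on the array. This gave 48 genes of the 19050 tested in the series: 20 of replication, 4 that regulate the step of the cycle from G1 to S phase, and 24 of mitosis. Mcm7 and Ccnd1 share their probe set with other symbols, Ccnb1 was matched to no probe set by this rule, and 1 listed name, Foxm1_none, matched no symbol, so these 4 are not analysed here. All 48 measured genes lay above the median of their array on all 22 arrays. The 4 groups were 6 male and 5 female conditional Sox9 knockouts (ShhCre/+; Sox9fl/fl) and 6 male and 5 female littermate controls (Shh+/+; Sox9+/fl), all C57BL/6J and all at embryonic day E16.75. Knockouts carry Cre at 1 Shh allele, which directs it to cells that express Shh. Controls have no Cre and 1 floxed Sox9 allele, so the design cannot tell apart loss of Sox9, the Cre and the altered Shh allele. The sinus was digested, its mesenchyme was removed under a microscope, and RNA of the remaining epithelium was read on whole-transcript arrays, 1 array per sample. The replicates are labelled biological, with no word on single or pooled fetuses, and p-values therefore measure the spread between arrays.

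Values are the deposited log2 values, on which a difference of 1 is a doubling, and their array medians lay between 5.10 and 5.27. Sox9, the deleted gene, averaged 8.26 ± 0.14 (SD, n = 6) in male knockouts against 9.33 ± 0.21 (n = 6) in male controls. In females it averaged 7.89 ± 0.09 (n = 5) in knockouts against 8.89 ± 0.11 (n = 5) in controls, and in both sexes all knockout arrays lay below all control arrays. All 10 epithelial markers were measured, with mean levels between 9.07 and 12.67. Shh, 1 of the 10 and the gene that carries the Cre, was lower in knockouts of both sexes. Its log2 fold change was -0.45 in males (limma, adjusted p = 0.00874) and -0.56 in females (adjusted p = 0.0128). Male control 6 stood apart in markers of other tissue: its mean over 6 smooth muscle genes was 7.11, where the other male controls had 5.54 to 5.79. Its mean over 10 mesenchyme genes was 7.67, where they had 6.55 to 6.80.

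A cell that divides first licenses its replication origins by loading the MCM helicase, then copies its DNA with polymerases held on the sliding clamp PCNA, and later condenses and separates its chromosomes on a spindle driven by the kinases CDK1, PLK1 and the Aurora kinases. Genes of the first part are known to be switched on in late G1 by E2F factors. Genes of the second part peak in G2 and mitosis and are known for promoters with a CHR element and CCAAT boxes, which are bound by the DREAM and MuvB complexes and by NF-Y. In fetal urogenital sinus, androgens act through the mesenchyme and the epithelium of males grows out as solid buds. RNA of the separated epithelium was measured in bulk, so a lower share of dividing cells and less RNA of these genes per dividing cell cannot be told apart.

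Promoters were searched for the letters known from replication and mitosis genes. The 160 bases before the RefSeq start of 7 genes are shown, 5′ to 3′ on the gene's strand (build GRCm38.p6). These 7 all hold letters known for their side, which not all genes of the list do. Capitals mark the letters searched on both strands: TTTCGCGC, TTTGGCGC, TTTCCCGC or TTTGCCGC for E2F, TTTGAA or TTCGAA for the CHR, and CCAAT for the CCAAT box, so that reverse matches read, for example, TTCAAA or ATTGG. The first 4 belong to mitosis: Cdc20 (the activator of the anaphase-promoting complex, chr4:118437344-118437503, minus strand), Top2a (the topoisomerase that untangles sister DNA, chr11:99024190-99024349, minus), Kif11 (the motor that pushes spindle poles apart, chr19:37376222-37376381, plus) and Cdk1 (the kinase that starts mitosis, chr10:69352913-69353072, minus). The last 3 belong to replication: Mcm5 (chr8:75109349-75109508, plus) and Mcm6 (chr1:128359706-128359865, minus), both helicase subunits, and Cdc6 (a loader of that helicase, chr11:98907991-98908150, plus).
Cdc20: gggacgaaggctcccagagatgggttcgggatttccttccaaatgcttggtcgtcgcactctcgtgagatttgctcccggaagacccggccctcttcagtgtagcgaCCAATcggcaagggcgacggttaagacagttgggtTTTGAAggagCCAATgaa
Top2a: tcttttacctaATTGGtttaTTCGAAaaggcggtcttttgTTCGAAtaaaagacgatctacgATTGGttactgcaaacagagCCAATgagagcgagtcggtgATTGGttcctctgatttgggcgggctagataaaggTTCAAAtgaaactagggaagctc
Kif11: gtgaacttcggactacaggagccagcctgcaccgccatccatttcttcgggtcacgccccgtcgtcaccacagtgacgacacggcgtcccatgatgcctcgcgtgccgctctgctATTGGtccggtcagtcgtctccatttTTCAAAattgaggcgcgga
Cdk1: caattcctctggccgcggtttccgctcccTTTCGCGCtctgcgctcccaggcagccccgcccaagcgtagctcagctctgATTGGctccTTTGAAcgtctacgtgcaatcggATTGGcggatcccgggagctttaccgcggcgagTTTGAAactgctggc
Mcm5: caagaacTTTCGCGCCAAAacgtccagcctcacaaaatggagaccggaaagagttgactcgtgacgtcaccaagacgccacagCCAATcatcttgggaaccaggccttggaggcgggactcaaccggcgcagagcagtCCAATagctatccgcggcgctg
Mcm6: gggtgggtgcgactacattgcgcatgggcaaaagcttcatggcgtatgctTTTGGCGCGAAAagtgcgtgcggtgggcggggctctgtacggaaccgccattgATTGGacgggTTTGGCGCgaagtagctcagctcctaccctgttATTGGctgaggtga
Cdc6: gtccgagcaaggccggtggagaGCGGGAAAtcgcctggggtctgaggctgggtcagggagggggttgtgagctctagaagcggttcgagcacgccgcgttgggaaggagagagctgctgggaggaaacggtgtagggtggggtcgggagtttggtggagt

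The mitosis promoters of Cdc20, Top2a, Kif11 and Cdk1 carry CHR and CCAAT letters close together, while Mcm5, Mcm6 and Cdc6 carry E2F letters and no CHR letters. In Mcm5 and Mcm6 an E2F match on each strand overlaps the other, which gives 1 longer run of capitals. Of the 48 genes, 38 had a window of 300 bases in the RefSeq table, from 250 before the start to 50 after it. E2F letters occurred in 7 of 17 replication genes (41.2%) and in 1 of 19 mitosis genes (5.26%, Cdk1), against 2.6% of the 27025 genes of the table. CHR letters occurred in 3 of 17 replication genes (17.6%) and in 15 of 19 mitosis genes (78.9%), against 21.7% of all genes. In Aurka, Bub1, Cenpa, Cenpf, Kif23, Plk1 and Ttk the only CHR match lay after the start. CCAAT letters occurred in 64.7% of the replication and 78.9% of the mitosis genes, against 41.1% of all. CHR and CCAAT letters together occurred in 11.8% of the replication and 73.7% of the mitosis genes, against 9.65% of all. The windows of Nusap1, Mad2l1 and Birc5, all mitosis genes, of Rfc4, Tk1 and Tyms, all replication genes, and of E2f1 and Ccne1 held none of the 3 motifs, nor did 1 of the windows of Fen1. These are letter matches, which do not show binding.

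**Figure D1:**
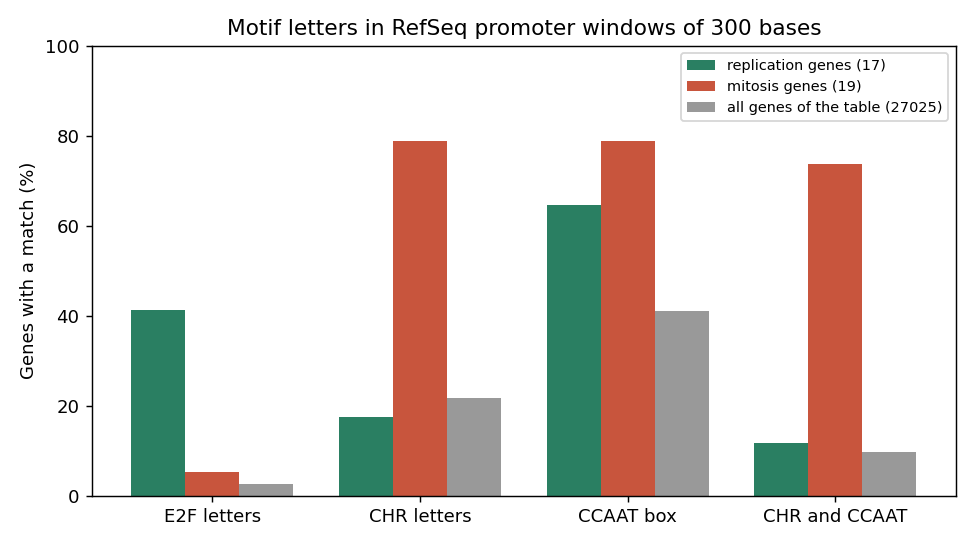
Share of genes (%, y axis from 0 to 100) whose RefSeq promoter window holds each motif, for 17 replication genes, 19 mitosis genes and all 27025 genes of the table. E2F letters are in 41.2% of replication and 5.26% of mitosis genes, and CHR letters in 17.6% and 78.9%.

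The first comparison asks how the dividing-cell genes differed between the conditional Sox9 knockouts and their littermate controls. In males, none of the 48 passed the test (limma, p under 0.05 after Benjamini-Hochberg adjustment over the 19050 genes), against 38 of all genes (0.199%). At an unadjusted p under 0.05, 1 of the 48 was found (2.08%), against 6.27% of all genes. The gene was Ccne1, cyclin E1, which activates CDK2 at the entry into S phase. Its lowest, median and highest values were 7.58, 7.94 and 8.30 in male knockouts, against 8.10, 8.17 and 8.30 in male controls. The groups overlapped, and the knockouts spread more widely. The log2 fold change of Ccne1 was -0.24 (SE 0.09, adjusted p = 0.555).

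The groups of genes lay close to no change in males. The median log2 fold change was 0.013 over the 20 replication genes, 12 of them positive, and -0.0042 over the 24 mitosis genes, 12 of them positive, against 0.011 over all genes. Origin licensing and helicase genes ran from -0.04 to 0.08, with Gins1, a subunit of the active helicase, at 0.08 (SE 0.09, adjusted p = 0.924). The DNA synthesis machinery ran from -0.07 to 0.03, where Prim1, the primase that starts each new strand, was at -0.07 (SE 0.12). Among the nucleotide suppliers Rrm1, the large subunit of ribonucleotide reductase, was at -0.09 (SE 0.07). The mitotic cyclins and kinases ran from -0.15 for Cdc25c, the phosphatase that activates CDK1, to 0.03. Of the checkpoint genes, Bub1b, which delays anaphase until chromosomes attach, was at 0.12 (SE 0.09). Mki67, the proliferation marker Ki-67, had 10.95, 11.20 and 11.25 (lowest, median, highest) in male knockouts against 10.81, 11.11 and 11.19 in male controls, which gave 0.08 on the log2 scale (SE 0.08, adjusted p = 0.905). No gene of the list had non-overlapping male groups, against 0.184% of all genes higher and 0.236% lower in knockouts.

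In females, none of the 48 passed either, against 6 of all genes (0.0315%). Unadjusted, 4 of the 48 had p under 0.05 (8.33%), against 5.46% of all genes. Tk1, the thymidine kinase of the salvage pathway, read 8.21, 8.11, 7.93, 7.93 and 7.94 in female knockouts 1 to 5, against 7.91, 7.89, 7.93, 7.87 and 7.70 in female controls 1 to 5. Its log2 fold change was 0.16 (SE 0.06, adjusted p = 0.871), and the groups overlapped at 7.93. Cenpa, the histone variant that marks centromeres, was at 0.15 (SE 0.06, adjusted p = 0.875). E2f1, an activator of replication genes, was at -0.12 (SE 0.05, adjusted p = 0.890). Fen1, the nuclease that trims Okazaki fragments, read 6.87, 6.98, 7.04, 6.79 and 7.06 in female knockouts, against 6.96, 7.13, 7.32, 7.20 and 7.04 in female controls. That gave -0.18 (SE 0.09, adjusted p = 0.904), with overlap.

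By group, 11 of 20 replication genes and 19 of 24 mitosis genes had a positive log2 fold change in females, with medians of 0.040 and 0.079 against 0.008 over all genes. The replication median was -0.023 without female control 5, 0.089 without female control 4 and 0.0075 with array weights. The mitosis median ran from 0.042 to 0.13 on leaving out each array. All 9 mitotic cyclins and kinases were positive, from 0.02 to 0.17, where Cdk1 stood at 0.17 (SE 0.08, adjusted p = 0.913). Cdc20 was at 0.17 (SE 0.10, adjusted p = 0.941) and Kif23, a motor of the cleavage furrow, at 0.10 (SE 0.08). The centromere and chromosome genes split evenly, 3 positive and 3 negative, with a median of -0.005. Gins2, a partner of Gins1, was at 0.13 (SE 0.07). The 5 urothelium markers were higher in female knockouts too, with a median log2 fold change of 0.40, as were the 6 immune markers, with a median of 0.17. None of these markers was called, and their part in these values was not tested. No gene of the list had non-overlapping female groups, against 0.772% of all genes higher and 0.619% lower in knockouts.

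With the sexes averaged, again none of the 48 passed, against 47 of all genes (0.247%, with 0.0472% higher in knockouts), and 3 had an unadjusted p under 0.05 (6.25%, against 7.19% of all genes). These were Ccne1 at -0.18 (SE 0.06, adjusted p = 0.460), Cenpa at 0.09 (SE 0.04) and Bub1b at 0.13 (SE 0.06). The averaged comparison uses the same arrays as those of each sex. The male minus the female effect, tested as an interaction, was called for none of the 48 and for 1 of all genes (0.00525%). None of the 48 had an unadjusted p under 0.05 there, against 4.04% of all genes. Cdc25c had the smallest p of the list, at -0.30 (SE 0.15, adjusted p = 0.997).

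The number of arrays limited the precision of these comparisons. Over the 48 genes, the 95% intervals of the log2 fold change reached from -0.42 (Ccne1) to 0.35 (Kif11) in males, or 1.34-fold lower to 1.27-fold higher. In females they reached from -0.36 (Fen1) to 0.50 (Kif11), or 1.28-fold lower to 1.41-fold higher. Kif11 was the least precise gene in both sexes, with SE 0.14 and 0.15, and E2f1 the most precise, with SE 0.05 in each.

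**Figure D2:**
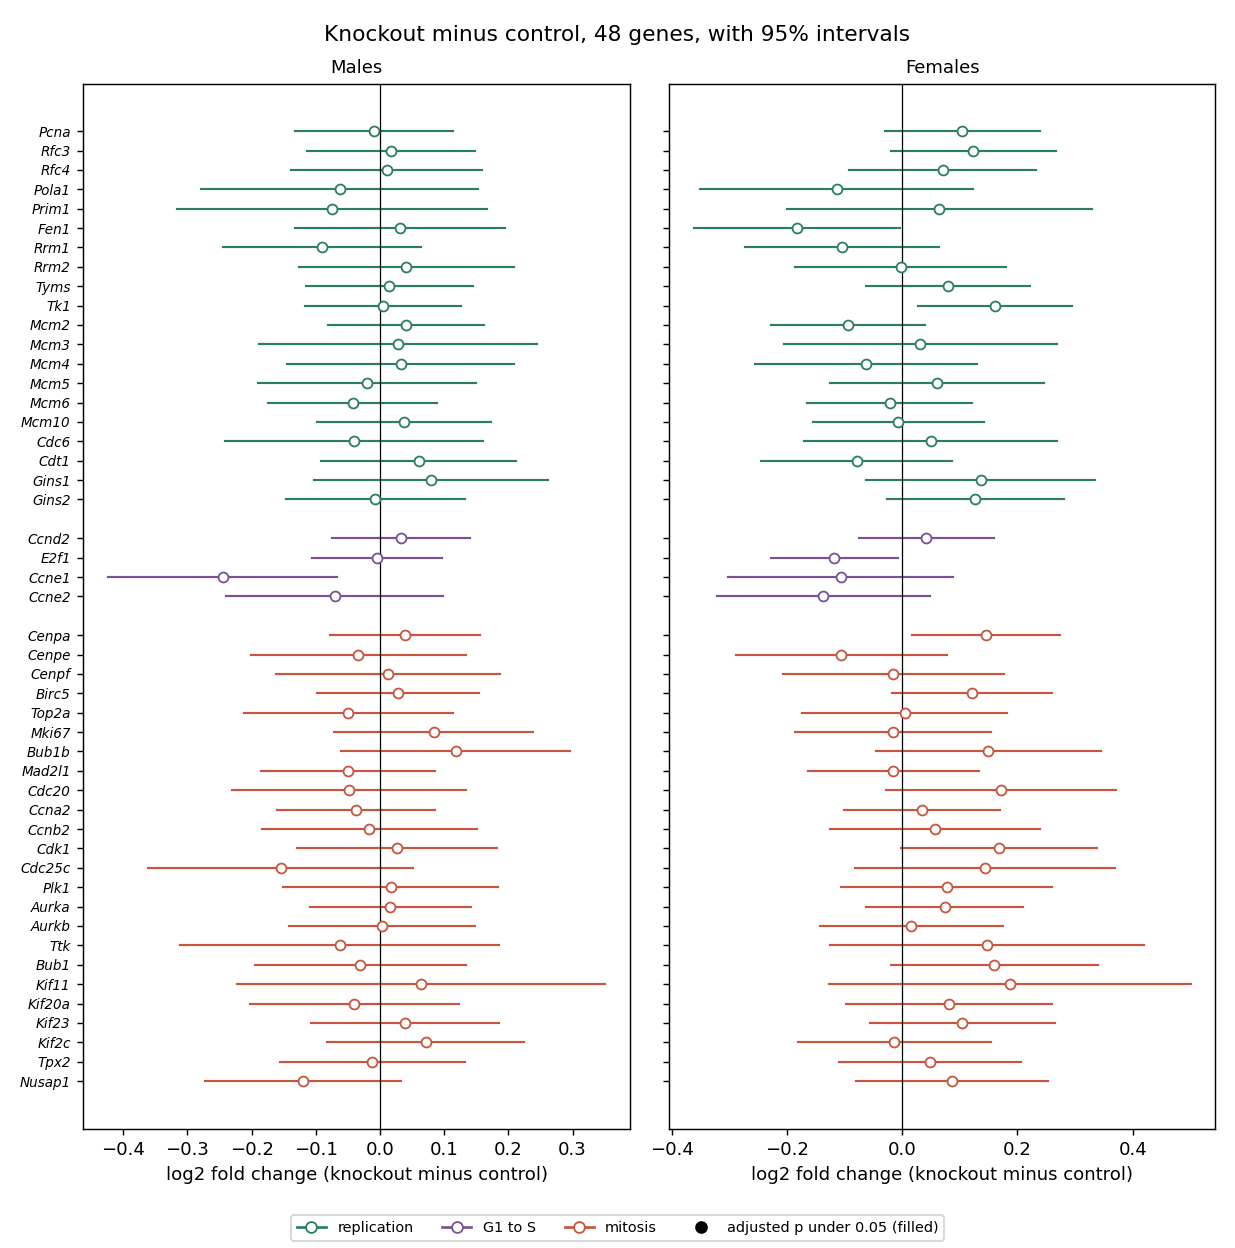
Log2 fold change, knockout minus control, of each of the 48 genes (points) with its 95% interval (lines), in males (left) and females (right). No point is filled, since none has an adjusted p under 0.05, and the intervals span -0.42 to 0.35 in males and -0.36 to 0.50 in females.

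The second comparison asks how the sexes differed within each genotype. Male and female knockouts share no arrays with male and female controls, so each log2 fold change between the sexes stands on its own arrays. The SE and the p-value do not, since the fit pooled the spread over the arrays of both genotypes. The SE of E2f1, for example, was 0.051 in knockouts and in controls. The tests in knockouts and in controls are therefore not independent. Among knockouts 1 of the 48 genes was called, higher in males (2.08%), against 698 of all genes (3.66%). None was called lower in males, against 3.52% of all genes. The called gene was Ccnd2, cyclin D2, which carries growth signals to CDK4 and CDK6. Its lowest, median and highest values were 11.95, 12.04 and 12.08 in male knockouts, against 11.76, 11.82, 11.83, 11.77 and 11.94 in female knockouts. Male and female knockouts did not overlap, and the log2 fold change was 0.20 (SE 0.05, adjusted p = 0.0240), or 1.15-fold. The call was lost without male knockout 6 (adjusted p = 0.0564) and without female knockouts 1, 2 or 4 (adjusted p = 0.0694, 0.0522 and 0.0654). It was also lost with each array centred on its median (adjusted p = 0.0685) and with the replicate number fitted as a block (0.0526).

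The rest of the list leaned the same way among knockouts without passing. At an unadjusted p under 0.05 there were 17 of the 48 (35.4%), against 17.2% of all genes. Positive log2 fold changes were found for 18 of 20 replication genes (median 0.13), 23 of 24 mitosis genes (median 0.14) and 3 of 4 G1 to S genes, against a median of -0.012 over all genes. Of all genes, 44.0% were positive. Mcm4, a helicase subunit, had 9.14, 9.18 and 9.45 (lowest, median, highest) in male knockouts, against 8.89, 8.82, 9.07, 8.94 and 9.08 in female knockouts. These did not overlap, and the difference was 0.28 (SE 0.09, adjusted p = 0.0627). Rrm2, the small subunit of ribonucleotide reductase, was at 0.27 (SE 0.08, adjusted p = 0.0552), Ccne2, cyclin E2, at 0.27 (SE 0.09, adjusted p = 0.0631), and Aurkb at 0.23 (SE 0.07, adjusted p = 0.0606). Cenpe, a motor at the kinetochore, was at 0.25 (SE 0.08) and Mad2l1, a spindle checkpoint protein, at 0.20 (SE 0.07). Mcm4 and Ccnd2 were the 2 genes of the list with non-overlapping knockout groups (4.17%), against 2.79% of all genes higher in males, and none was separate in the other direction, against 3.03%.

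Among controls 9 of the 48 genes were called, all of them higher in males (18.8%), against 623 of all genes (3.27%). None was lower, against 3.67% of all genes, and in either direction 6.94% of all genes were called. The 9 were 8 mitosis genes and Ccnd2, and no replication gene was among them. At an unadjusted p under 0.05 there were 30 of the 48 (62.5%), against 19.1% of all genes. All 24 mitosis genes had a positive log2 fold change (median 0.21), as did 18 of 20 replication genes (median 0.14) and 3 of 4 G1 to S genes (median 0.10), against a median of -0.013 over all genes. Of all genes, 44.8% were positive. Non-overlapping control groups were found for Nusap1, Bub1 and Birc5 (6.25%), against 2.82% of all genes higher in males.

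Nusap1, which bundles spindle microtubules near chromosomes, had the smallest p. Male controls had 8.49, 8.75 and 8.84 (lowest, median, highest), against 8.33, 8.33, 8.48, 8.48 and 8.19 in female controls. All male controls lay above all female controls, and the log2 fold change was 0.36 (SE 0.08, adjusted p = 0.00379), or 1.28-fold. Male knockouts had 8.48, 8.53 and 8.82, against 8.56, 8.27, 8.49, 8.36 and 8.57 in female knockouts. There the sexes overlapped, and the difference was 0.15 (SE 0.08, adjusted p = 0.316). The interaction for Nusap1 was -0.21 (SE 0.11, adjusted p = 0.997), so the sexes' difference was not shown to depend on genotype.

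Ccnd2 was the gene called in both genotypes. Male controls had 11.86, 11.97 and 12.20, against 11.83, 11.71, 11.90, 11.78 and 11.69 in female controls. Those groups overlapped, and differed by 0.21 (SE 0.05, adjusted p = 0.0190). The highest male control value, 12.20, was that of male control 6, the array high in stromal markers, and without it the call remained, at 0.17 (adjusted p = 0.0431).

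Of the 3 checkpoint and anaphase genes, Cdc20 and Mad2l1 were called in controls, and Bub1b was at 0.14 (SE 0.09, adjusted p = 0.415). Cdc20 had 9.16, 9.28 and 9.56 in male controls, against 8.93, 9.01, 9.20, 9.14 and 8.68 in female controls. It differed by 0.32 (SE 0.09, adjusted p = 0.0354) with overlap at 9.16 to 9.20. Mad2l1, which inhibits Cdc20 until chromosomes attach, had 9.83, 9.99 and 10.04, against 9.68, 9.66, 9.76, 9.85 and 9.67, a difference of 0.23 (SE 0.07, adjusted p = 0.0439) with overlap. Bub1, a kinase of the same checkpoint, had 7.48, 7.65 and 7.73, against 7.39, 7.46, 7.31, 7.44 and 7.12. No male control of Bub1 lay below a female control, and the log2 fold change was 0.28 (SE 0.08, adjusted p = 0.0402).

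The other 4 calls in controls were of a phosphatase, a topoisomerase, a motor and a kinase. Cdc25c had 6.97, 7.09 and 7.35 in male controls, against 6.88, 6.66, 7.00, 6.89 and 6.52 in female controls, and differed by 0.35 (SE 0.10, adjusted p = 0.0414). Top2a had 9.05, 9.25 and 9.39, against 8.91, 8.88, 9.12, 9.10 and 8.69, and differed by 0.28 (SE 0.08, adjusted p = 0.0438). Kif23 had 9.18, 9.31 and 9.43, against 8.95, 9.07, 9.20, 9.23 and 8.89, and differed by 0.25 (SE 0.07, adjusted p = 0.0459). For each of these 3 genes the lowest male control overlapped the highest female control. Aurkb, the kinase of the chromosomal passenger complex, had 8.94, 9.03 and 9.11, against 8.79, 8.78, 9.03, 8.81 and 8.55, and differed by 0.24 (SE 0.07, adjusted p = 0.0474). Female control 3, at 9.03, was the only female control of Aurkb within the male range.

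**Figure D3:**
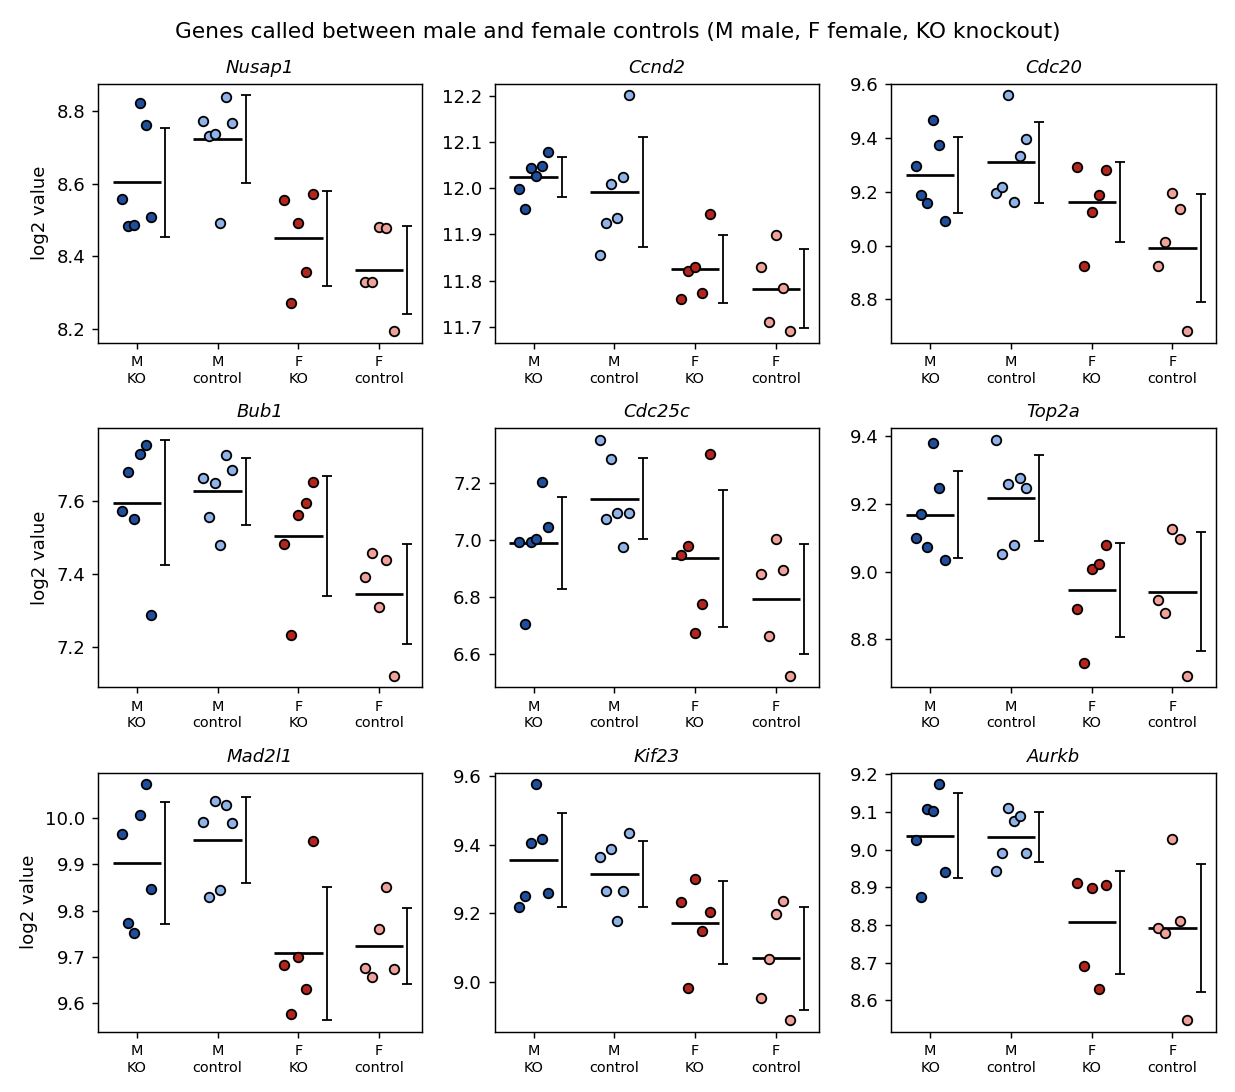
Log2 value of the 9 genes called between male and female controls on every array (points), with the group mean (line) and SD (bar), in male knockouts, male controls, female knockouts and female controls. For Nusap1 the male controls (8.49 to 8.84) lie above the female controls (8.19 to 8.48), while the knockout groups overlap.

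Replication genes did not pass in controls, although several had differences like those of the mitosis genes. Pcna, the sliding clamp, had 10.37, 10.55 and 10.63 in male controls, against 10.32, 10.37, 10.39, 10.42 and 10.15 in female controls, a difference of 0.20 (SE 0.06, adjusted p = 0.0565) with overlap. Rrm2 was at 0.23 (SE 0.08, adjusted p = 0.124), Mcm5 at 0.22 (SE 0.09, adjusted p = 0.144) and Gins1 at 0.23 (SE 0.09, adjusted p = 0.156). Mcm2 was at 0.02 (SE 0.06) and Cdt1, which loads the helicase with Cdc6, at -0.02 (SE 0.08). Among the mitosis genes that were not called, Ccna2, cyclin A2, was at 0.19 (SE 0.06, adjusted p = 0.0641), Tpx2, an activator of Aurora A, at 0.22 (SE 0.07, adjusted p = 0.0819) and Kif11 at 0.37 (SE 0.14, adjusted p = 0.147). Mki67 was at 0.11 (SE 0.08, adjusted p = 0.478). Ccne1 and E2f1 lay at -0.0025 and 0.0065.

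The 9 control calls all had a positive male minus female difference in knockouts too, and 1 of them was called there (11.1%). Their median difference was 0.18 in knockouts and 0.28 in controls. Of the 623 genes of the whole series called higher in male controls, 98.1% were higher in male knockouts and 412 (66.1%) were called there, with medians of 0.31 and 0.33. Both the 9 and the 623 genes were picked by their calls in controls, which favours larger differences in controls than in knockouts. No interaction was called for any of the 9, so a smaller difference in knockouts was not shown.

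The count of 9 rested on single arrays. It fell to 1 (Nusap1) without female control 5, to 2 without female control 1 or 2 or male control 3 or 6, to 3 without male control 5 and to 4 without male control 1. It was 2 with each array centred on its median or with no filter on dim probe sets. It was 4 with only the control arrays in the fit or with the replicate number fitted as a block. With the filter at the 75th percentile it was 11. Of the 9 calls, that of Nusap1 was kept whichever array was left out, and the others were lost on leaving out any 1 of 2 (Ccnd2) to 9 (Aurkb) of the 11 control arrays. The direction held in each such fit: without female control 5 the medians were 0.082 over replication and 0.17 over mitosis genes.

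**Figure D4:**
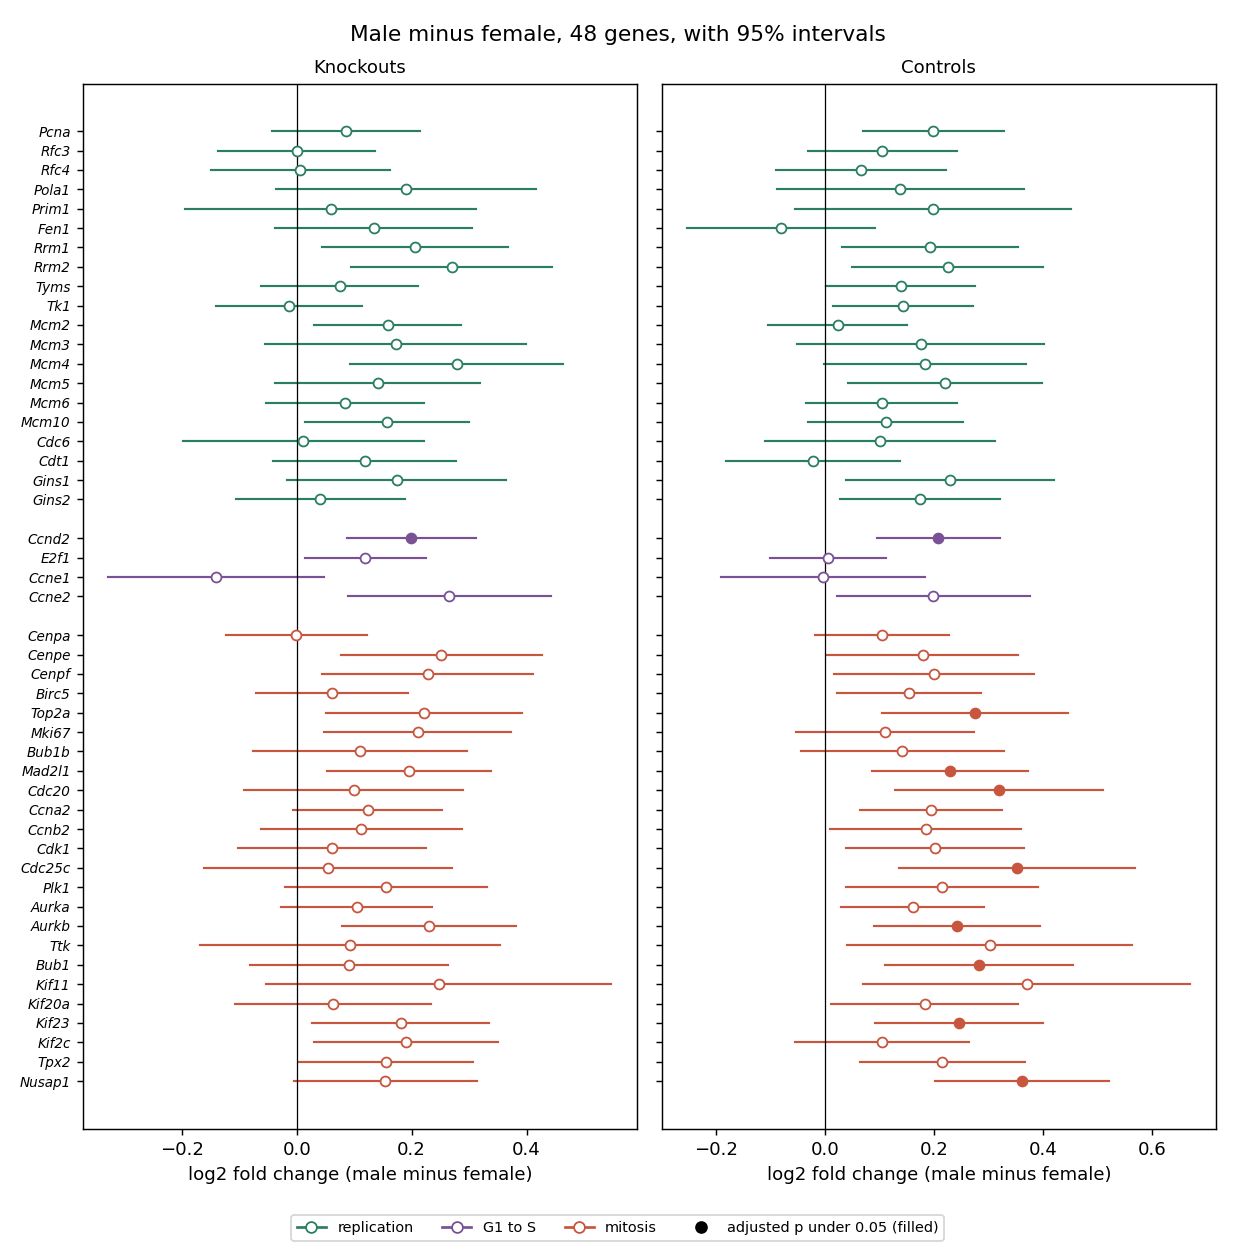
Log2 fold change, male minus female, of each of the 48 genes (points) with its 95% interval (lines), in knockouts (left) and controls (right). Filled points have an adjusted p under 0.05: 1 in knockouts (Ccnd2) and 9 in controls, and 44 and 45 of the 48 points lie above 0.

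Replication was set against mitosis on each array by averaging, over the genes of each side, the deviation from the gene's own mean over the 22 arrays. These averages carry no test, since the genes were chosen with earlier results of these data known. The replication average was 0.058 ± 0.128 (SD, n = 6) in male knockouts and 0.055 ± 0.039 (n = 6) in male controls, and -0.060 ± 0.059 (n = 5) in female knockouts and -0.076 ± 0.149 (n = 5) in female controls. The mitosis average was 0.080 ± 0.124 in male knockouts and 0.086 ± 0.053 in male controls, and -0.062 ± 0.112 in female knockouts and -0.137 ± 0.131 in female controls. In both sexes knockouts and controls differed by less than their SD on both sides.

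Replication and mitosis moved together from array to array. The 2 averages had the same sign on 20 of 22 arrays, and in 3 of 4 groups the same array was highest in both and the same array was lowest in both. Male knockout 4 had 0.260 for replication and 0.248 for mitosis, while male knockout 6 had -0.115 and -0.081. Female control 5 had -0.305 and -0.326, the lowest of all 22 arrays on both sides. Female knockout 2 had -0.138 and -0.218, and female knockout 5 had 0.015 and 0.084.

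The difference of the 2 averages, replication minus mitosis, was small beside these swings. It ran from -0.107 to 0.045 in male knockouts, with 4 of 6 arrays below 0, and from -0.074 to 0.044 in male controls, with 5 of 6 below 0. It ran from -0.069 to 0.080 in female knockouts, with 3 of 5 arrays above 0, and from 0.021 to 0.076 in female controls, with all 5 above 0. On female control 5 it was 0.021. In the fold changes, the replication median minus the mitosis median was 0.017 for the knockout effect in males and -0.038 in females, and -0.013 between the sexes in knockouts and -0.067 in controls. On leaving out each array in turn, the knockout effect's difference ran from -0.0018 to 0.025 in males and from -0.068 to -0.023 in females. The difference between the sexes ran from -0.045 to 0.014 in knockouts and from -0.085 to -0.045 in controls. The sign thus turned for the knockout effect in males and for the sexes in knockouts.

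**Figure D5:**
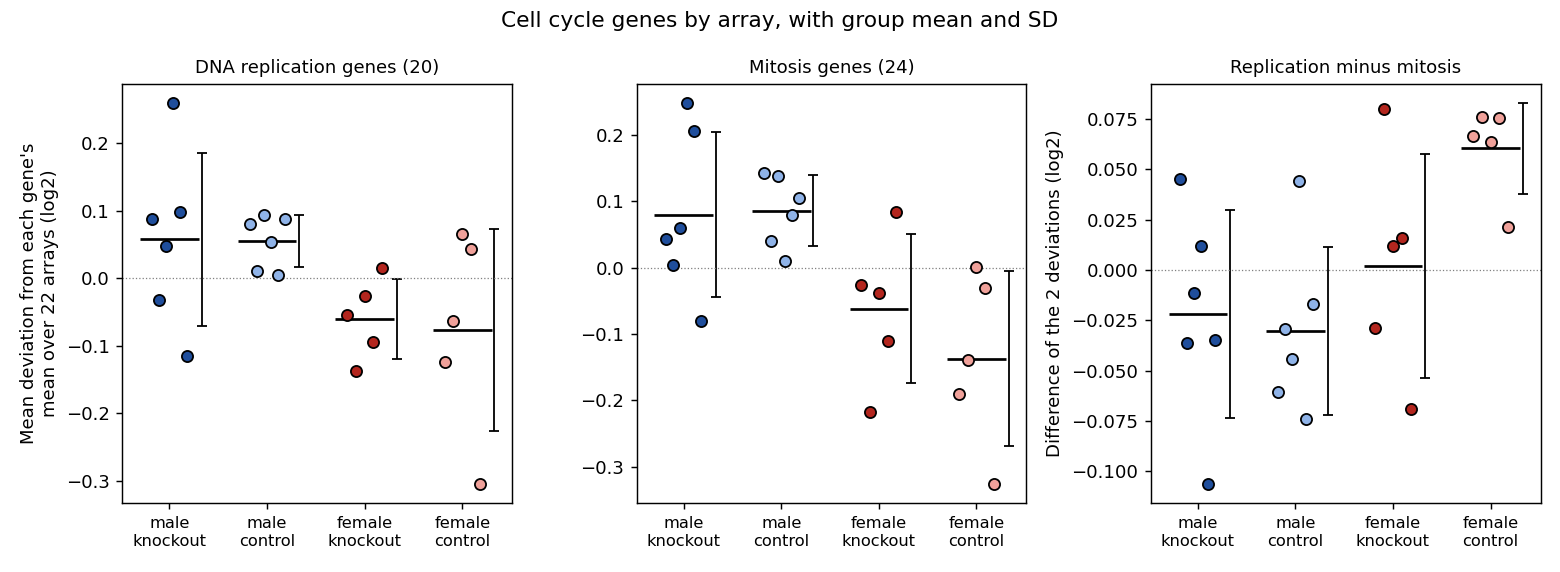
Mean deviation (log2) of 20 replication genes (left) and 24 mitosis genes (middle) from each gene's mean over 22 arrays, and the difference of the 2 (right), for every array (points) with group mean (line) and SD (bar). Male groups average 0.055 to 0.086 and female groups -0.137 to -0.060, and all 5 female controls lie above 0 on the right.

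Other genes of the same pathways were read from lists that do not hold the 48. These lists, too, were chosen with earlier results of these data known, so they are no independent check. Their counts stand against 3.66% of all genes called higher and 3.52% called lower in males among knockouts, and 3.27% higher and 3.67% lower among controls. Of 37 further replication genes, 2 were called higher in males among knockouts, Asf1b (a chaperone that brings histones to the fork, 0.36, SE 0.09, adjusted p = 0.0184) and Lig1 (the ligase that joins Okazaki fragments, 0.23, SE 0.07, adjusted p = 0.0497). Among controls 1 was called higher, Gmnn (geminin, which blocks relicensing, 0.26, SE 0.08, adjusted p = 0.0414). Their medians were 0.060 in knockouts and 0.15 in controls. The calls of Lig1 and Gmnn were each lost on leaving out any 1 of 8 arrays, and that of Asf1b on leaving out 1.

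Of 47 further mitosis genes, all 47 had a positive male minus female difference in each genotype, with medians of 0.16 in knockouts and 0.18 in controls. Over all genes the difference was positive for 44.0% in knockouts and 44.8% in controls. The 47 were read on the same arrays, so they are not separate replicates of the difference. Among knockouts 4 were called higher: Cdc25b (another CDK1-activating phosphatase, 0.30, SE 0.07, adjusted p = 0.00601), Anln (a scaffold of the cleavage furrow, 0.27, SE 0.07), Ncaph (a condensin subunit, 0.29, SE 0.07) and Kntc1 (a kinetochore protein, 0.25, SE 0.07). Among controls 6 were called higher, of which Ncaph (0.38, SE 0.07, adjusted p = 0.00161), Smc4 (the condensin ATPase, 0.30, SE 0.08), Tacc3 (a stabiliser of spindle fibres, 0.28, SE 0.07) and Kif14 (a motor of the midbody, 0.23, SE 0.07) had the smallest p. Ncaph averaged 8.50 ± 0.07 in male and 8.20 ± 0.13 in female knockouts, and 8.61 ± 0.12 in male and 8.22 ± 0.17 in female controls. On leaving out single arrays, the calls of Kif14 and Kntc1 were lost in 7 and 5 fits, those of Tacc3, Smc4 and the knockouts' Ncaph in 4, 1 and 1. None of these replication and mitosis genes was called between knockouts and controls, in males, in females or averaged.

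Among brakes of the cycle and growth-driven regulators, Cdkn1a, Myc and Mycn differed more between the sexes than any of the 48 genes, in knockouts and in controls. Cdkn1a, the CDK inhibitor p21, averaged 9.68 ± 0.13 (n = 6) in male and 10.17 ± 0.03 (n = 5) in female knockouts, and 9.47 ± 0.18 (n = 6) in male and 10.18 ± 0.15 (n = 5) in female controls. It was lower in males by -0.49 (SE 0.08, adjusted p = 0.000255) in knockouts and -0.70 (SE 0.08, adjusted p = 3.1e-06) in controls. Btg2, an antiproliferative gene, was lower in males as well, at -0.30 (SE 0.07, adjusted p = 0.0106) in knockouts and -0.29 (SE 0.07, adjusted p = 0.0129) in controls. Of the 17 brakes, 1 was called higher and 3 lower in males among knockouts, and 2 lower among controls. The higher one was E2f7, a repressor among the E2F factors, at 0.27 (SE 0.07, adjusted p = 0.0165), and its call was lost without female knockouts 1 or 3 (adjusted p = 0.0611 and 0.0557). That of Btg2 in controls was lost with each array centred on its median (adjusted p = 0.0652).

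Myc averaged 8.19 ± 0.20 in male and 7.54 ± 0.18 in female knockouts, and 8.08 ± 0.22 in male and 7.58 ± 0.09 in female controls. It was higher in males by 0.65 (SE 0.10, adjusted p = 0.000137) in knockouts and 0.50 (SE 0.10, adjusted p = 0.00276) in controls. Mycn, its relative, ran the other way, at -0.74 (SE 0.12, adjusted p = 0.00019) in knockouts and -0.84 (SE 0.12, adjusted p = 5.22e-05) in controls. Of 10 such drivers, 4 were called higher and 1 lower in males among knockouts, and 1 higher and 1 lower among controls. Ccnd3 (cyclin D3, 0.15, SE 0.04) and Cdk6 (a partner of the D cyclins, 0.37, SE 0.10) were among the higher ones in male knockouts. The call of Ccnd3 was lost without female knockouts 4 or 5 (adjusted p = 0.0574 and 0.0528), with quantile normalization (0.0669) and with only the knockout arrays in the fit (0.0706). With the replicate number fitted as a block its adjusted p was 0.0778. The call of Cdk6 was lost without male knockout 5 or female knockouts 1 or 2 (adjusted p = 0.0504, 0.0590 and 0.0819).

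Between knockouts and controls, 1 gene of these cell cycle lists was called, in males. Cdkn1c, the CDK inhibitor p57, averaged 9.01 ± 0.04 (n = 6) in male knockouts against 9.20 ± 0.09 (n = 6) in male controls, with no overlap and a difference of -0.19 on the log2 scale (SE 0.04, adjusted p = 0.0461). In females it averaged 9.17 ± 0.03 in knockouts against 9.20 ± 0.04 in controls and was not called. The male call was lost without any 1 of male knockouts 1 to 5 or male controls 1, 3 or 6, with adjusted p between 0.0706 and 0.138. It was also lost with the female arrays left out of the fit (adjusted p = 0.370), with each array centred on its median (0.196), with no filter on dim probe sets (0.0722) and with array weights (0.0740). With the replicate number fitted as a block the adjusted p was 0.0554.

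Markers of handling moved with sex beside these genes. All 8 measured dissociation stress genes had a negative male minus female difference in each genotype, with medians of -0.22 in knockouts and -0.18 in controls. Over all genes the difference was positive for 44.0% in knockouts and 44.8% in controls. Jun was called, at -1.05 (SE 0.15, adjusted p = 5.91e-05) in knockouts and -1.04 (SE 0.15, adjusted p = 7.99e-05) in controls. The mean level over the 8 ran from 7.06 to 7.91 in male knockouts and 7.34 to 8.18 in female knockouts, and from 7.12 to 7.34 in male controls and 7.49 to 7.59 in female controls. Male and female controls did not overlap in this level, so among controls it cannot be told apart from sex. Female control 5, the lowest array for the cell cycle genes, had 7.59, at the top of its group's narrow range. Male knockout 5 (7.91) and female knockout 5 (8.18) had the highest stress levels of their groups and positive mitosis averages. The 6 smooth muscle markers had a median male minus female difference of 0.19 in controls, where male control 6 lies, and 0.014 in knockouts, with none called. Of the 10 mesenchyme markers, 9 were higher in male than in female controls (median 0.10), with Dcn the exception, called lower at -0.36 (SE 0.10, adjusted p = 0.0262). Among knockouts 3 of the 10 were higher in males, of which Lum was called at 0.57 (SE 0.13, adjusted p = 0.00743). All 5 urothelium markers (median -0.19) and all 6 immune markers (median -0.12) were lower in male than in female knockouts, with none called. Of the 10 epithelial markers, 4 were called among knockouts, 2 higher and 2 lower in males, against 7.19% of all genes. Among controls 2 were called, 1 higher and 1 lower in males, against 6.94% of all genes. The part of all these markers in the differences between the sexes was not tested.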

How the data were processed

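The authors deposited 1 table of log2 values for 72688 probe sets on 22 arrays, and the scale was read from the values, which run from 1.59 to 14.23. How the authors corrected, normalized and summarized them is not given in the sources used here, so they were used as deposited. Probe sets were named from the platform table, 30604 with exactly 1 symbol. Those above the 50th percentile of their array on at least 5 arrays were kept, with the highest mean per gene, which left 19050 genes. limma 3.58.1 (R 4.3.3) fitted the 4 group means over all arrays with default eBayes (18 residual and 4.34 prior degrees of freedom), and a gene was called where its p, after Benjamini-Hochberg adjustment over the genes tested, was under 0.05. No batch is recorded. The members and lists were chosen with earlier results of these data known. Members were named freely, and of other cell cycle lists up to 4 called genes of smallest p. The code was tested on simulated data. Promoters came from RefSeq (GRCm38.p6), and figures from matplotlib 3.10.9. Alternatives were quantile normalization, median centring, no filter or the 75th percentile as filter, averaged probe sets per gene, trend and robust options, a replicate block, array weights, only the arrays compared, and leaving out each array.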

Additional observations from a re-analysis of the deposited data

Results flagged for a closer look

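In 204 groups of 5 or 6 arrays that were checked, 7 held an array whose value lay far from the others of its group by Dixon's test at the 95% level, where chance gives about 1 in 20. All 7 were lowest values. Female control 5, the array with the lowest cell cycle averages, was low in Mcm3 (8.91, the next value being 9.47) and in Tk1 (7.70, next 7.87). Female knockout 2, the lowest array of its group on both averages, was low in Cenpe (7.31, next 7.49) and in Kif2c (6.91, next 7.20). Male control 4 was low in Nusap1 (8.49, next 8.73), and without it the male minus female difference of Nusap1 in controls stayed called. Rrm1 was low in male control 2 (8.69, next 8.82), and E2f1 in female control 1 (7.38, next 7.52).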

How the results depend on the processing

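No gene of the 48 was called between knockouts and controls in either sex, averaged over the sexes or in the interaction under any alternative tried. Between male and female controls the count of 9 was 2 with median centring or no filter and 4 with only the arrays compared. It was 11 with the filter at the 75th percentile, and 1 to 10 on leaving out each array. Between male and female knockouts the count of 1 was 0 with median centring, 5 with the filter at the 75th percentile, 3 with trend and robust options, 2 with array weights, 2 with only the arrays compared, and 0 to 2 on leaving out each array. The labels do not say whether replicate numbers pair the samples, and the main fit took them as unpaired. Deviations of same-numbered arrays correlated between -0.21 and 0.25 across the 4 pairs of groups, which cannot exclude shared litters or batches. With the replicate block the counts were 4 in controls and 0 in knockouts (Ccnd2 at adjusted p = 0.0526). The interaction count was then 2 of all genes, and Cdkn1c in males had adjusted p = 0.0554. Over all genes, the female knockout count of 6 was 3 with median centring, 11 with array weights and 3 with only the arrays compared (2 to 6 on leaving out arrays), the male count of 38 was 20 with only the arrays compared (27 to 49), and the averaged count of 47 was 72 with array weights (41 to 56). The interaction count of 1 was 0 with quantile normalization, median centring, no filter or trend and robust options and 2 with array weights (0 to 2 on leaving out arrays). On leaving out arrays the counts between the sexes were 1073 to 1434 in knockouts and 1006 to 1694 in controls. Fewer arrays or more genes enter some of these fits, and the cause of the shifts was not tested. Medians over the replication and mitosis genes moved by less than the SD between arrays (0.103 and 0.108) in each alternative. Leaving out 1 array could hardly move a median by that much, so this says little about stability. Medians near 0 for the knockout effect changed sign under some alternatives, such as the female replication median.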
